A study of Mus musculus with 27 samples.

Results

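The TNF receptor and NF-kappaB genes described here are 10 mouse genes chosen by symbol: the ligand Tnf, the receptors Tnfrsf1a, Tnfrsf1b and Tnfrsf12a, the NF-kappaB subunits Nfkb1, Nfkb2 and Relb, and the regulators Nfkbia, Tnfaip3 and Bcl3. All 10 were among the 40129 genes listed, and all 10 were among the 27137 genes that were tested because their mean reached at least 1 normalized read. The study sequenced RNA from whole retinas of wildtype mice (C57BL/6 in the labels, C57BL/6J in the study's methods) in the oxygen-induced retinopathy (OIR) model, in which pups spend several days in high oxygen, lose central retinal vessels, and are then returned to room air. Retinas were taken at postnatal day 14 (p14), the hypoxic phase, or at p17, the phase of retinal neovascularization. Age-matched pups kept in room air served as controls (nOIR). The groups held 6 nOIR and 6 OIR mice at p14, and 6 nOIR and 8 OIR mice at p17, males and females together. A library held 1 retina or both retinas of a mouse, and some mice of a group shared a litter. A further nOIR p14 mouse (S4), which the study excluded for contamination with lens genes, was left out here too.

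TNF is an inflammatory cytokine released mainly by activated microglia and macrophages, and it acts through the receptors TNFR1 (Tnfrsf1a), present on most cells, and TNFR2 (Tnfrsf1b), found mostly on immune and endothelial cells. The receptors recruit adaptor proteins and the IKK kinases, which mark IkappaB proteins for degradation and free NF-kappaB dimers to enter the nucleus. In the canonical arm the p50 subunit (Nfkb1) pairs with RelA, and in the non-canonical arm p52 (Nfkb2) pairs with RelB, an arm that can be set off by the TWEAK receptor Fn14 (Tnfrsf12a). Several genes of the pathway are themselves known NF-kappaB targets, among them the inhibitors Nfkbia and Tnfaip3, which close negative feedback loops.

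NF-kappaB acts at DNA stretches called kappaB sites, so the sequences around the start sites of the 10 genes were read for them. RefSeq promoters on GRCm38.p6, from 250 bases before to 50 bases after each start, were at hand for 8 of the 10 genes (11 promoters), and not for Nfkb1 and Relb. The kappaB consensus was searched on both strands as 3 G, a purine, any 2 bases, 2 pyrimidines and 2 C. It was found in 4 of the 8 genes, Nfkbia, Nfkb2, Tnfaip3 and Bcl3, whereas 9.55% of the 27025 genes and 8.46% of the 32851 promoters in the table held it. The stretches that hold the matches follow, 5′ to 3′ on the strand of the gene, with the matching bases in capitals.

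Nfkbia, chr12:55492657-55492686, minus strand: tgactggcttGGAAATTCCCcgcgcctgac
Nfkb2, chr19:46304688-46304736, plus strand: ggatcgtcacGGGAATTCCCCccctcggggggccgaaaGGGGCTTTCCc
Nfkb2, chr19:46305449-46305478, plus strand: tccgacggcaGGAATGTCCCcacaaaagcc
Nfkb2, chr19:46305695-46305724, plus strand: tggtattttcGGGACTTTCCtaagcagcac
Tnfaip3, chr10:19015516-19015545, minus strand: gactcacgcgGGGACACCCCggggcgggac
Tnfaip3, chr10:19015411-19015432, minus strand: aatttccatcGGAAATCCCCct
Bcl3, chr7:19822734-19822763, minus strand: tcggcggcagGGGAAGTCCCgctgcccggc

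The Nfkbia match lay 29 to 20 bases before the start. In Nfkb2 the first stretch held 3 matches, of which a pair overlapped, and they ran from 39 to 2 bases before its start. The second lay 236 to 227 bases before another annotated start of Nfkb2, and the third 11 to 20 bases after that start. The matches of Tnfaip3 lay 125 to 116 bases and 12 to 3 bases before one of its 2 annotated starts, and the promoter of the other start held none. That of Bcl3 began 3 bases after its start. The promoters of Tnf, Tnfrsf1a, Tnfrsf1b and Tnfrsf12a held no match of these letters in this window. The shorter motif TTTCC, which can lie within a kappaB match, was found in 6 of the 8 genes and in 64.4% of all genes in the table. A match is a run of letters and was not tested for binding.

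In the hypoxic phase, 4 of the 10 genes were upregulated in OIR p14 against nOIR p14 mice (Tnf, Tnfrsf1a, Tnfrsf12a and Bcl3), 1 was lower (Tnfaip3), and 5 did not pass the test. Among all genes tested, 3.18% were higher and 2.91% lower at an adjusted p under 0.05 (limma, Benjamini-Hochberg over all genes tested). In the neovascular phase, 8 of the 10 were upregulated in OIR p17 against nOIR p17 mice, Tnfaip3 was again lower and Nfkb1 alone did not pass, beside 7.39% of all genes higher and 5.12% lower. The median log2 fold change of the 10 genes was 0.76 at p14 and 2.04 at p17, whereas that of all genes tested was 0.02 and -0.02. Tnf, at 0 in nOIR p14, lies above the median of the 10 genes at its bound too. Counted as differentially expressed genes (DEG, with a log2 fold change above 2 as well), 3 of the 10 were upregulated at p14 and 5 at p17, beside 0.744% and 1.9% of all genes. Every OIR mouse was above every nOIR mouse for 4 of the 10 genes at p14 and for 6 at p17, beside 1.91% and 3.9% of all genes.

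**Figure D1:**
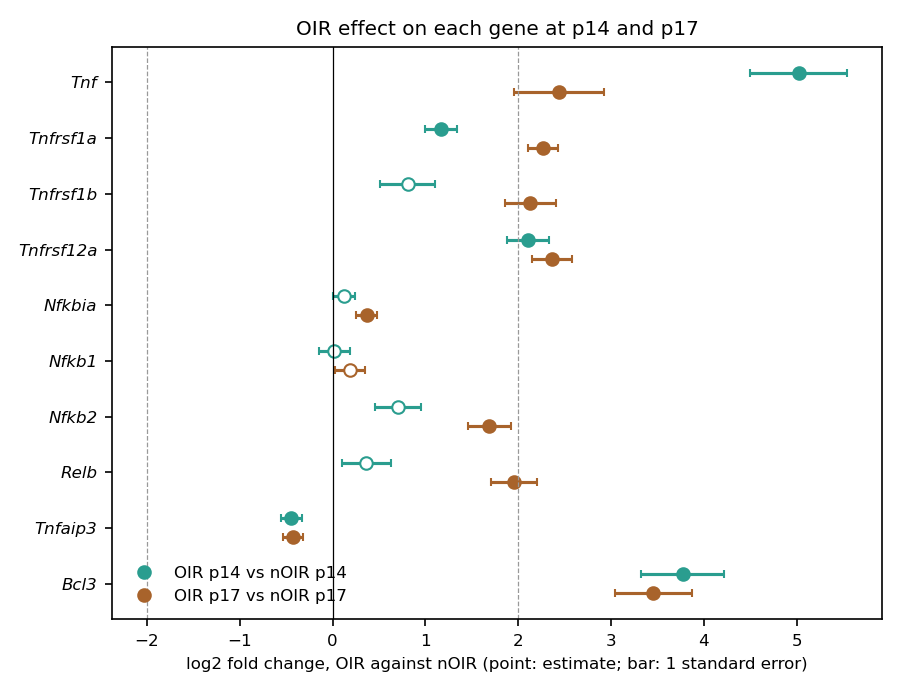
Log2 fold change of each of the 10 genes in OIR against nOIR mice at p14 (teal) and p17 (brown), with bars of 1 standard error to either side. Filled points passed an adjusted p of 0.05, and dashed lines mark a log2 fold change of 2 in either direction. Tnfaip3 is the gene to the left of 0 at both ages, and the p17 points of Relb and Tnfrsf1b lie furthest to the right of their p14 points.

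Markers of microglia and macrophages moved with the p17 results. Of 10 such genes, 2 were higher at p14 (C1qa and Cd68) and 7 at p17, with medians of 0.31 and 1.29, and 4 had a larger effect at p17. At p14 their summed level was 2246 to 2797 normalized reads in nOIR and 2243 to 3312 in OIR mice. At p17 it was 1822 to 2143 in nOIR and 3097 to 5295 in OIR mice, which lay above every control. None of these 10 markers was at 0 in a whole group.

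Of 6 endothelial markers 1 was higher and 1 lower at p14, and 4 were higher at p17. Of 5 pericyte and smooth muscle markers 1 was higher and 2 lower at p14, and all 5 were higher at p17. Pericyte and smooth muscle sums ran from 2616 to 3446 normalized reads in nOIR p17 and from 9056 to 14430 in OIR p17 mice, with no overlap. The 4 erythrocyte markers were all higher at p17, with a median log2 fold change of 3.04, and their sums ran from 180 to 1074 normalized reads in nOIR p17 and from 1131 to 15110 in OIR p17 mice, with no overlap. Endothelial sums ran from 6081 to 8171 normalized reads in nOIR p17 and from 7859 to 10940 in OIR p17 mice. Of 2 neutrophil markers tested, S100a8 was higher at p17 (2.03, limma adjusted p = 0.0138). Sums of neutrophil markers had a median of 2.35 normalized reads in nOIR p17 and 11.7 in OIR p17 mice and were at most 24.8 in any mouse, with Mpo at 0 in both nOIR groups and OIR p14. Sums of 4 T and B cell markers were at most 43.0, with Cd3e, Cd3d and Ms4a1 at 0 in all OIR p14 mice.

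Some markers of neurons were lower in OIR mice. Of 6 rod and cone markers 2 were lower at p14 and 1 at p17, and their sums at p14 were 632100 to 812200 normalized reads in OIR and 881200 to 1099000 in nOIR mice, with no overlap. At p17 the sums overlapped, at 848800 to 1352000 in OIR and 979300 to 1313000 in nOIR mice. Of 4 ganglion cell markers 2 were lower at each age, with sums at p14 of 16940 to 19680 in OIR and 20150 to 26430 in nOIR mice, with no overlap. The p17 sums of ganglion cell markers overlapped, at 17870 to 26610 in OIR and 24670 to 30980 in nOIR mice. Of 6 Müller glia markers, 2 were higher and 3 lower at each age. The part of all these cells in the results was not tested. In whole retina, more cells of a type and more RNA per cell cannot be told apart.

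Levels can be compared between genes only per kilobase of exon (normalized reads divided by the length of the merged exons). Merging the exons of all annotated transcripts understates a gene whose expressed transcripts are shorter. The merged length was greatest for Nfkb1 (12061 bases, beside 4584 for Nfkb2), so the place of Nfkb1 is uncertain. On the per-kilobase scale the feedback inhibitors were the most abundant in nOIR p14 retina. Tnfaip3 had a mean level of 802 and Nfkbia of 634 normalized reads per kilobase, with ranges that overlapped (646 to 947 and 529 to 782). Tnfrsf1a (84.0) and Tnfrsf12a (64.8) came next and also overlapped. Relb (31.6), Nfkb1 (23.0), Nfkb2 (21.1) and Tnfrsf1b (16.8) formed a run in which each overlapped its neighbour, followed by Bcl3 (6.66), which overlapped Tnfrsf1b, and by Tnf at 0. In OIR p17 retina Tnfaip3 (923) and Nfkbia (766) still led per kilobase. Tnfrsf12a (357) and Tnfrsf1a (341) followed with overlapping ranges, and Bcl3 (148) stood above Relb (63.4), Tnfrsf1b (54.5), Nfkb2 (48.9) and Nfkb1 (25.1), with a range from 25.1 to 330 that overlapped the ranges of those 4 genes and also those of Tnfrsf12a (175 to 633) and Tnfrsf1a (262 to 483). The range of Tnfrsf12a overlapped that of Nfkbia (515 to 978) too. Tnf had the lowest mean at 4.93 per kilobase.

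Tnf (chr17:35199381-35202007 on GRCm38, minus strand) encodes the cytokine itself. No read was recovered in any of the 6 nOIR p14 mice, whereas the 6 OIR p14 mice had 17.1, 40.8, 59.5, 25.7, 37.7 and 23.9 normalized reads. At p17, 5 of the 6 nOIR mice were at 0 and mouse S4 had 2.21 normalized reads (2 reads), and the 8 OIR mice had 6.22, 13.6, 24.0, 5.95, 4.54, 6.61, 3.66 and 0. The groups did not overlap at p14, and at p17 mouse S8 of the OIR group was at 0 like most controls while the other 7 were above every nOIR mouse.

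In reads, Tnf had 206 in the OIR p14 mice and 0 in the nOIR p14 mice. Taking 3 reads per library as the limit that a count of 0 allows, its mean was at least 11.9-fold higher in OIR p14 mice, whereas the mean of OIR p17 mice was 2.65 times the same limit in nOIR p17 mice. Pooled over each group and scaled by its summed size factors, the reads gave a ratio with a lower limit of 57.1 at p14 (95%). At p17 there were 67 reads against 2, a pooled ratio of 24.0 with a counting interval of 6.39 to 202, which rests on the 2 reads of mouse S4. Tnf passed the test at both ages (limma adjusted p = 1.46e-07 at p14 and 0.000565 at p17), with a fitted log2 fold change at p17 of 2.44 ± 0.49 (SE). At such low counts the fitted value depends on the pseudocount, and it was 4.71 at p17 with a pseudocount of 0.1.

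Tnf was lower in OIR p17 than in OIR p14 mice by 2.30 ± 0.49 (SE) on the log2 scale: the log2 fold change was -2.30 (limma adjusted p = 0.00286), and 7 of the 8 OIR p17 mice were below every OIR p14 mouse. The ratio of OIR p14 to OIR p17 in pooled, scaled reads was 4.19, with a counting interval of 3.17 to 5.61. The fall in the OIR effect from p14 to p17, -2.58 ± 0.71, missed the threshold (limma adjusted p = 0.0625), and it passed without OIR p17 mouse S3 (-2.85, adjusted p = 0.022), without OIR p17 mouse S2 (adjusted p = 0.0465), without OIR p14 mouse S1 (adjusted p = 0.0499) and with the excluded nOIR p14 mouse (adjusted p = 0.0478). Over all alternatives the fitted difference ran from -3.97 with edgeR to -1.98 with a replicate block. Counting intervals cover counting error only, since the reads carried no molecular identifiers.

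Tnfrsf1a (chr6:125349362-125362484, plus strand) encodes TNFR1, the death-domain receptor through which TNF drives both inflammation and cell death. It had a lowest, median and highest value of 158, 219 and 250 normalized reads in nOIR p14 and of 285, 510 and 641 in OIR p14 mice. At p17 it had 135, 195 and 223 in nOIR and 680, 839 and 1252 in OIR mice. No OIR mouse fell within the range of its controls, and every OIR p17 mouse was also above every OIR p14 mouse.

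The log2 fold change of Tnfrsf1a was 1.17 ± 0.17 (SE) at p14 (limma adjusted p = 3.16e-05) and 2.27 ± 0.16 at p17 (adjusted p = 1.34e-11). The effect was larger at p17 by 1.10 ± 0.23 (adjusted p = 0.0081), beside 1.43% of all genes with a larger effect at p17. Tnfrsf1a and Relb were the 2 of the 10 genes past this test. Within OIR mice Tnfrsf1a rose from p14 to p17 by 0.84 ± 0.16 (adjusted p = 0.000915), a comparison that shares its OIR p17 mice with the p17 one.

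Tnfrsf1b (chr4:145213463-145246870, minus strand) encodes TNFR2, which lacks a death domain. Its lowest, median and highest values were 29.3, 69.0 and 80.5 normalized reads in nOIR p14 and 62.3, 101 and 215 in OIR p14 mice, and 4 of the 6 OIR mice were above every control. At p17 they were 18.6, 52.5 and 69.1 in nOIR and 151, 198 and 269 in OIR mice, with no overlap. The log2 fold change was 0.81 ± 0.30 (SE) at p14 (limma adjusted p = 0.117, and 0.0232 with DESeq2) and 2.13 ± 0.28 at p17 (adjusted p = 1.21e-06). The difference between the ages, 1.32 ± 0.40, did not pass (adjusted p = 0.117), but passed without nOIR p14 mouse S7 (adjusted p = 0.0385) or OIR p14 mouse S4 (adjusted p = 0.0365).

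Tnfrsf12a (chr17:23675445-23677468, minus strand) encodes Fn14, the receptor for the cytokine TWEAK, and is known as a gene that rises after tissue injury. Its lowest, median and highest values were 96.0, 118 and 168 normalized reads in nOIR p14 and 373, 490 and 977 in OIR p14 mice. At p17 they were 98.8, 134 and 143 in nOIR and 338, 645 and 1223 in OIR mice. All OIR mice were above all controls of their age, and they spread over a wider range than the controls.

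The log2 fold change of Tnfrsf12a was 2.11 ± 0.23 (SE) at p14 (limma adjusted p = 3.71e-07) and 2.36 ± 0.22 at p17 (adjusted p = 2.14e-09). The difference between the ages was 0.25 ± 0.32 (adjusted p = 0.839). It ran from 0.124 without OIR p17 mouse S3 to 0.43 without OIR p14 mouse S5, and passed in no alternative. Its ligand gene Tnfsf12, which encodes TWEAK and is named here for that reason, did not pass at either age. Tnfsf12 had 935 to 1285 normalized reads in nOIR and 656 to 1367 in OIR mice at p14, and 947 to 1396 in nOIR and 639 to 1227 in OIR mice at p17, with overlap at each age.

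**Figure D2:**
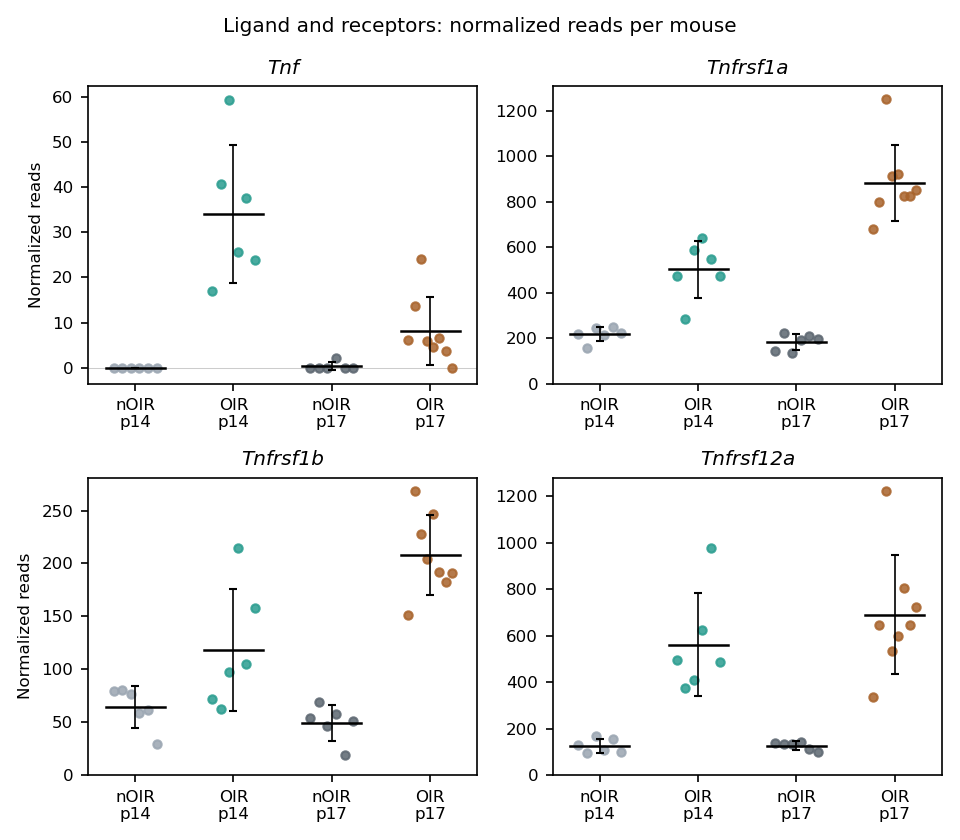
Normalized reads of Tnf, Tnfrsf1a, Tnfrsf1b and Tnfrsf12a in each mouse (points) by group, with the group mean (long line) and SD (bar). Tnf has no reads in nOIR p14 mice and is highest in OIR p14 mice, whereas the receptors Tnfrsf1a and Tnfrsf1b are highest in OIR p17 mice.

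Nfkb1 (chr3:135584655-135691547, minus strand) encodes p105 and p50 of the canonical arm. It had a lowest, median and highest value of 199, 299 and 328 normalized reads in nOIR and of 204, 271 and 350 in OIR mice at p14. At p17 it had 218, 266 and 291 in nOIR and 198, 311 and 429 in OIR mice. OIR and control values overlapped at both ages. The log2 fold change was 0.02 ± 0.17 (SE) at p14 (limma adjusted p = 0.978) and 0.19 ± 0.16 at p17 (adjusted p = 0.541).

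Nfkb2 (chr19:46304320-46312385, plus strand), with 3 annotated promoters above, encodes p100 and p52 of the non-canonical arm. Its lowest, median and highest values were 74.9, 95.1 and 116 normalized reads in nOIR p14 and 62.6, 186 and 206 in OIR p14 mice. In OIR p14, 5 of the 6 mice were above every control and mouse S1 was below all of them. At p17 the values were 48.7, 65.4 and 86.3 in nOIR and 135, 209 and 339 in OIR mice, with no overlap.

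Nfkb2 had a log2 fold change of 0.71 ± 0.25 (SE) at p14 (limma adjusted p = 0.0949) and 1.69 ± 0.23 at p17 (adjusted p = 2.96e-06). The p14 change passed the threshold without OIR p14 mouse S1 (0.97, adjusted p = 0.00268), and it also passed with edgeR (adjusted p = 0.037) and DESeq2 (adjusted p = 0.0124) on recovered reads. The difference between the ages, 0.98 ± 0.34, did not pass (adjusted p = 0.196). Exons of Psd and AC114539.1 overlap Nfkb2 on the opposite strand, and the library kit does not mark strand, so reads of these genes cannot be told apart where they overlap.

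Relb (chr7:19606217-19629438, minus strand) encodes the partner of p52. Its lowest, median and highest values were 80.6, 133 and 148 normalized reads in nOIR p14 and 89.9, 172 and 195 in OIR p14 mice, which overlapped. At p17 they were 33.1, 57.0 and 104 in nOIR and 148, 226 and 407 in OIR mice, with no overlap. Relb was thus lowest in nOIR p17 and highest in OIR p17 mice.

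For Relb the log2 fold change was 0.37 ± 0.27 (SE) at p14 (limma adjusted p = 0.551) and 1.96 ± 0.25 at p17 (adjusted p = 8.32e-07). The effect was larger at p17 by 1.59 ± 0.36 (adjusted p = 0.0157). From nOIR p14 to nOIR p17 the change was -0.99 ± 0.27, which did not pass (adjusted p = 0.131) but did with DESeq2. The difference lost its call when the 4 mice with the most reads of the lens gene Cryaa (nOIR p14 S5 and OIR p17 S2, S7 and S8) were left out (1.41, adjusted p = 0.133). Each of these 4 had a Cryaa level at least as high as nOIR p14 mouse S4, which the study excluded for lens contamination. The summed normalized reads of 4 lens genes ran from 29.0 to 27240 over the mice, and their part in the result was not tested.

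Nfkbia (chr12:55489410-55492647, minus strand) encodes IkappaBalpha, which holds NF-kappaB in the cytoplasm and is rapidly made again after it is degraded. At p14 the lowest, median and highest values were 852, 988 and 1258 normalized reads in nOIR and 934, 1106 and 1341 in OIR mice. The p17 values were 862, 949 and 1019 in nOIR and 829, 1251 and 1574 in OIR mice. At p17, 7 of the 8 OIR mice were above every control and mouse S1 was below all of them. The log2 fold change was 0.12 ± 0.12 (SE) at p14 (limma adjusted p = 0.699) and 0.37 ± 0.11 at p17 (adjusted p = 0.0281), and the p17 call was lost in 9 of the alternatives tried, among them a fit to the p17 groups alone (adjusted p = 0.0523) and fits without nOIR p17 mouse S1, S4 or S6 or without OIR p17 mouse S3 or S8 (adjusted p from 0.0519 to 0.0701).

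Tnfaip3 (chr10:19000910-19015657, minus strand) encodes A20, a ubiquitin-editing enzyme that shuts off signalling from the TNF receptors. Tnfaip3 had a lowest, median and highest value of 4666, 5807 and 6843 normalized reads in nOIR p14 and of 3501, 4230 and 5014 in OIR p14 mice. At p17 they were 7463, 8814 and 10539 in nOIR and 4980, 7099 and 7870 in OIR mice. In OIR 5 of 6 mice at p14 and 7 of 8 at p17 were below every control, and OIR p14 mouse S6 and OIR p17 mouse S1 were within the range of theirs.

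Tnfaip3 was the gene of the 10 that was lower in OIR mice, with a log2 fold change of -0.45 ± 0.11 (SE) at p14 (limma adjusted p = 0.0132) and -0.43 ± 0.11 at p17 (adjusted p = 0.00485). The difference between the ages was 0.02 ± 0.15 (adjusted p = 0.985). It was also the gene of the 10 that changed with age in control mice, where it rose by 0.62 ± 0.11 from p14 to p17 (adjusted p = 0.00603) and every nOIR p17 mouse was above every nOIR p14 mouse, beside 0.158% of all genes that rose with age in nOIR. It rose by 0.64 ± 0.11 in OIR mice over the same days (adjusted p = 0.000171).

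Bcl3 (chr7:19808462-19822770, minus strand) encodes an atypical IkappaB protein that acts in the nucleus, where it binds p50 and p52 dimers. The lowest, median and highest values of Bcl3 were 11.0, 14.9 and 23.3 normalized reads in nOIR p14 and 102, 264 and 329 in OIR p14 mice. At p17 they were 17, 23.0 and 42.3 in nOIR and 62.2, 348 and 817 in OIR mice. No OIR mouse overlapped the controls at either age, and the OIR p17 mice differed among themselves more than those of any other group.

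For Bcl3 the log2 fold change was 3.77 ± 0.45 (SE) at p14 (limma adjusted p = 1.07e-06) and 3.46 ± 0.42 at p17 (adjusted p = 3.61e-07). The mean rose from 16.5 ± 5.20 (SD, n = 6) to 246 ± 88.9 (SD, n = 6) at p14 and from 24.9 ± 8.92 (SD, n = 6) to 365 ± 260 (SD, n = 8) at p17 (exact permutation test, two-sided, p = 0.00216 and 0.000666, not adjusted). Between the ages its effect differed by -0.32 ± 0.61 (adjusted p = 0.908). This difference ran from -0.548 without OIR p14 mouse S2 to 0.142 with a replicate block, and passed in no alternative. Exons of Gm16175 overlap Bcl3 on the opposite strand, and their reads cannot be told apart there.

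**Figure D3:**
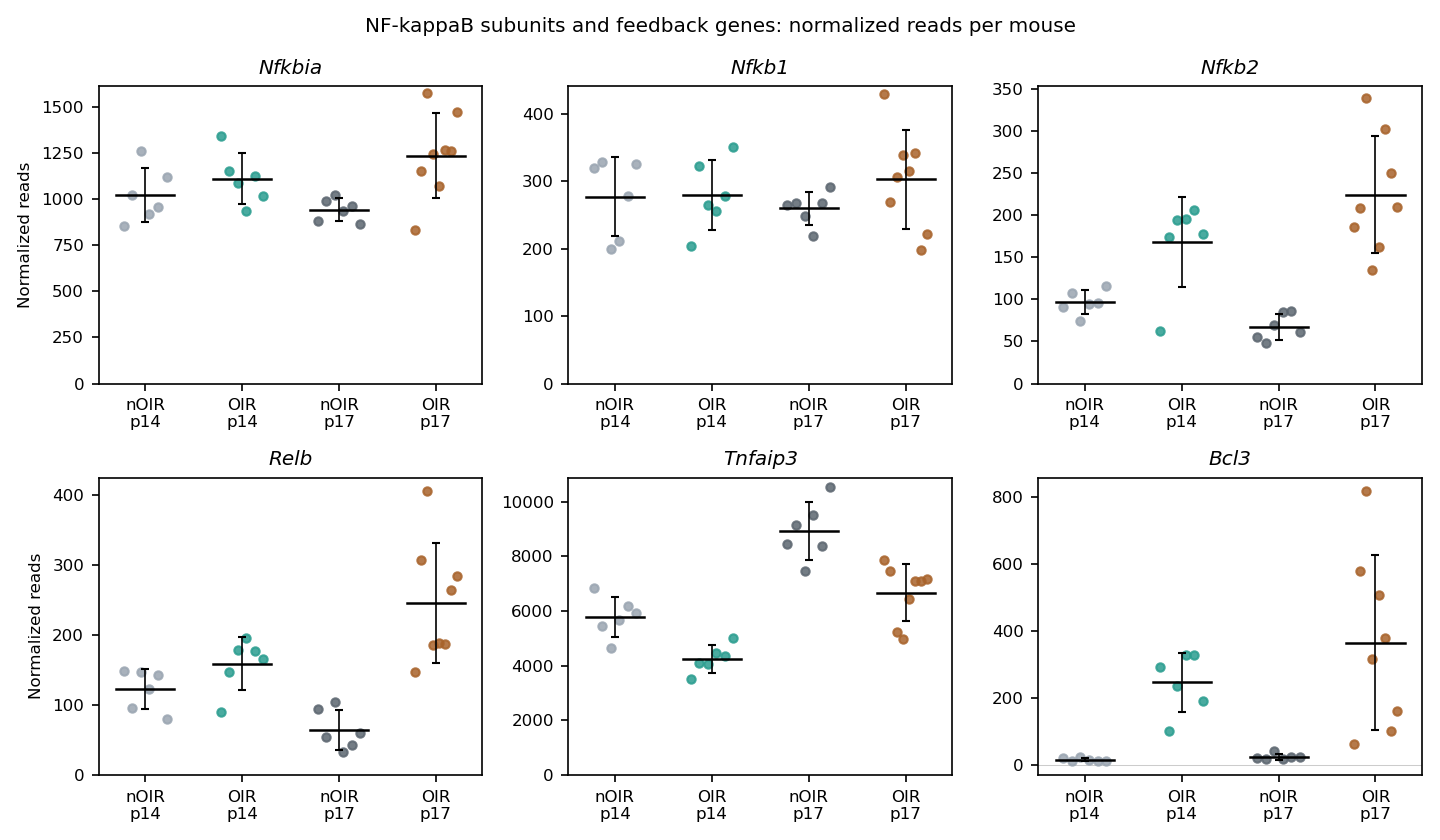
Normalized reads of Nfkbia, Nfkb1, Nfkb2, Relb, Tnfaip3 and Bcl3 in each mouse (points) by group, with the group mean (long line) and SD (bar). Nfkb2, Relb and Bcl3 separate OIR p17 from nOIR p17 mice, Nfkb1 and Nfkbia overlap between groups, and Tnfaip3 is lower in OIR mice at each age.

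Within OIR mice, Tnfrsf1a, Tnfrsf1b and Tnfaip3 were higher at p17 than at p14 and Tnf was lower, beside 4.11% of all genes higher and 1.81% lower. The log2 change of Tnfrsf1b with age in OIR was 0.92 ± 0.28 (SE, limma adjusted p = 0.0433), and 3 of the 8 OIR p17 mice were above every OIR p14 mouse. The other 6 genes did not pass.

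The 10 genes did not vary as one block within a group. After each group's mean was taken off, the correlation over the 26 mice was above 0 in 29 of the 45 pairs of genes, with a median r of 0.157, and 3 pairs exceeded 0.5. The highest was that of Tnfrsf12a and Bcl3 (r = 0.617), and the lowest was that of Nfkbia and Tnfaip3 (r = -0.624), so mice with more Nfkbia than their group tended to have less Tnfaip3. All pairs share the size factor of the mouse, and the values are given as a description.

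A single mouse often led several genes. OIR p17 mouse S3 was the highest of its group in 7 of the 10 genes (Tnf, Tnfrsf1a, Tnfrsf12a, Nfkbia, Nfkb2, Relb and Bcl3). OIR p17 mouse S1 was the lowest of its group in 6 genes (Tnfrsf1a, Tnfrsf1b, Tnfrsf12a, Nfkbia, Relb and Bcl3) and the highest in Nfkb1 and Tnfaip3, and it also had the fewest reads of all mice, 17029536. In OIR p14, mouse S1 was the lowest in 5 genes and mouse S2 in 4. Within OIR p17, mouse S3 also had the highest sums of erythrocyte (15110 normalized reads) and pericyte markers (14430), and mouse S1 the lowest sums of erythrocyte (1131), microglia and macrophage (3097) and neutrophil markers (0). The part of depth and of these cells in this was not tested.

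The genes whose pattern over the 26 mice was most like each of the 10 (Pearson correlation of log2 values, which the groups alone can raise) differed between them. Few of these partners kept a top rank under other measures: of the 30, 10 stayed among the top 3 by Spearman's rank correlation and 4 after each group's mean was taken off. A lost rank is not a lost correlation. With group means taken off, r ran from 0.269 for Tnf and Ccl4 to 0.922 for Nfkbia and Ftl1. Tnf was most like the chemokine gene Ccl4 (r = 0.905, and 0.269 with group means taken off), followed by Chrnb4 and Prss56. Tnfrsf1a was most like Litaf (r = 0.968), Arpc1b and Capg, and Tnfrsf1b like Axl (r = 0.91), Col4a1 and Itga5. Tnfrsf12a was most like the cytoskeletal genes Tubb6 (r = 0.972), Vim and Tagln2.

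Bcl3 was most like Cebpd (r = 0.975), Timp1 and Serpina3n, the last known from reactive astrocytes. Nfkbia was most like Tmsb4x (r = 0.914), Ftl1 and Arpc2, and Nfkb2 like the AP-1 gene Jun (r = 0.892), Ccnd1 and Fkbp10. Relb was most like Cd40 (r = 0.891), which encodes a TNF receptor family member, then Rhbdf1 and Smad1. Tnfaip3 was most like the protease gene Mmp9 (r = 0.91), Stk35 and Gm10097. Nfkb1 had no close partner among named genes, with Gm48958 (r = 0.722), Gm26549 and Gm48261 at the top.

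The other genes of the pathway were described from 5 lists, whose counts stand beside 3.18% of all genes higher at p14 and 7.39% at p17. Of 14 TNF superfamily ligands that were tested among 17, none was higher and 1 was lower at p14 (Cd70), and 2 were higher at p17. These were Tnfsf10, which encodes the death ligand TRAIL (log2 fold change 2.18 ± 0.67, SE, limma adjusted p = 0.0285), and Tnfsf9 (0.77 ± 0.25, adjusted p = 0.0389). Tnfsf10 ran from 0 to 73.3 normalized reads in nOIR p17 and from 78.4 to 157 in OIR p17 mice, with no overlap. The value of 0 among its controls raises its fitted change. The median log2 fold change of the ligands was -0.21 at p14 and 0.01 at p17.

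Of 22 further TNF receptor superfamily genes, 2 were higher at p14 (Tnfrsf8 and Fas) and 7 at p17, and none was lower. Among those that passed, the 3 largest changes at p17 were those of Eda2r (2.50 ± 0.76, SE, limma adjusted p = 0.0264), Tnfrsf11b, which encodes the decoy receptor osteoprotegerin (1.92 ± 0.31, adjusted p = 4.18e-05), and Tnfrsf10b, which encodes the TRAIL receptor (1.87 ± 0.33, adjusted p = 0.000119). Eda2r had few reads, with 0 to 13.5 normalized reads in nOIR p17 and 4.8 to 34.7 in OIR p17 mice, which overlapped. The median of the receptors was -0.05 at p14 and 0.46 at p17.

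Of 23 signalling proteins downstream of the receptors, 1 was higher at p14 (Tnip2) and 4 at p17, and none was lower. The share at p14 is near that of all genes. Among those that passed, the largest changes at p17 were those of the ubiquitin ligase gene Birc3 (1.76 ± 0.36, SE, limma adjusted p = 0.000721), of Ripk1, the kinase at the TNFR1 complex (0.81 ± 0.15, adjusted p = 0.000313), and of Tnip2 (0.78 ± 0.14, adjusted p = 0.00021). Of 9 IKK, other Rel and other IkappaB genes, Rela was higher at both ages (0.34 ± 0.10, adjusted p = 0.0417, and 0.44 ± 0.09, adjusted p = 0.00121) and Nfkbie at p17 (0.88 ± 0.22, adjusted p = 0.0067). The medians of these lists lay between 0.02 and 0.21.

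Of 22 genes known from textbooks as NF-kappaB targets, 10 were higher and 2 lower at p14, with a median log2 fold change of 1.77, and 11 were higher and 1 lower at p17, with a median of 1.29. Of those that passed, the chemokine genes changed most at p17: Ccl2 (5.55 ± 0.49, SE, limma adjusted p = 1.13e-09), Ccl3 (4.33 ± 0.40, adjusted p = 2.91e-09) and Ccl4 (4.26 ± 0.41, adjusted p = 4.72e-09). The 2 lower at p14 were Mmp9 and Vcam1, and Mmp9 was also the one lower at p17. The median of all genes tested was 0.02 at p14 and -0.02 at p17.

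**Figure D4:**
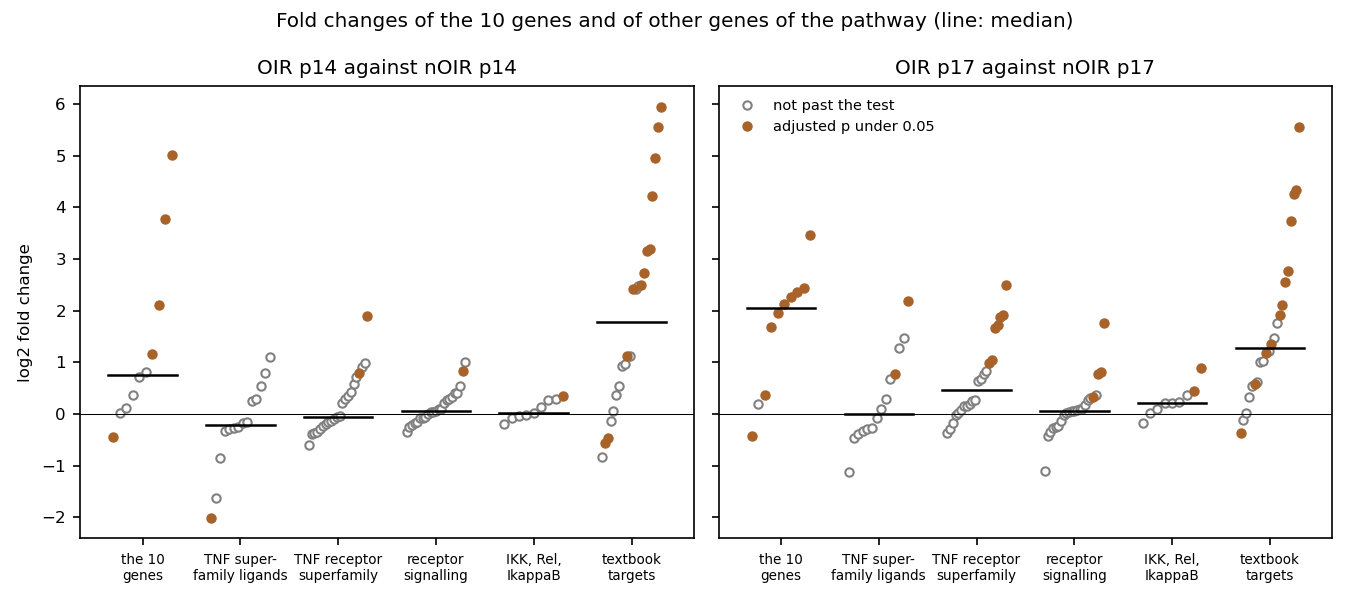
Log2 fold changes of the 10 genes and of the genes of 5 other pathway lists in OIR against nOIR mice at p14 (left) and p17 (right). Each point is a gene, filled where the adjusted p was under 0.05, and lines are medians. The median of the textbook targets is 1.77 at p14 and 1.29 at p17, while that of the 10 genes is 0.76 and 2.04.

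Rod and cone markers, which define the labelled tissue, were abundant in every mouse, with sums of at least 632100 normalized reads. Recovered reads ranged from 17029536 to 33593428 per mouse with a median of 30182576, and 1 read was worth 0.824 to 1.56 normalized reads. Nothing in the labels gave the litter of a mouse, so mice were taken as independent. Littermates thus counted as separate mice in every test, which can make the p-values too small.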

How the data were processed

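Total RNA from mouse retinas was amplified with the SMARTer v4 kit, which does not mark strand, and sequenced by the authors. They mapped reads with STAR 2.7.8a to the mouse reference genome (Gencode M28), counted genes with featureCounts 2.0.1 and deposited the signal as gene counts over 1 DESeq2 1.34 size factor per mouse, called normalized reads here. The table also holds the authors' group means, log2 fold changes and adjusted p-values, which were not used. Whole reads were recovered for 100% of values (tolerance 0.01). Reads were not deduplicated.

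In R 4.3.3, limma 3.58.1 (lmFit and trended eBayes) modelled log2(normalized reads + 1) of all 27137 genes with a mean of at least 1 in the 26 mice, with 4 groups in one fit. Fold changes are on that scale, which understates low genes. P-values were adjusted over all genes tested by the Benjamini-Hochberg method. A contrast of the OIR effects at the 2 ages was taken in the same fit, and DEG had to pass 0.05 after adjustment and lie beyond 2 in log2 fold change. Exact permutation tests used scipy 1.17.1. Scripts were tested on simulated data. EdgeR 4.0.16 and DESeq2 1.42.0 on recovered reads, a pseudocount of 0.1, a minimum mean of 10, other scalings, an adjusted p under 0.01, the inclusion of S4, a replicate block and leaving out each mouse were tried as alternatives. No pair of mice of a group was a copy (chi-square per degree of freedom at least 9.39, genes with at least 20 reads).

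The 10 genes and the lists were chosen with earlier results of these data known. All 10 genes were named, with the 3 genes most like each and, per list, up to 3 genes past the test with the largest change at p17. Cd70, Tnfrsf8, Fas, Tnip2 at p14, Rela at p14, Vcam1, Mmp9, C1qa, Cd68, S100a8, Tnfsf12, Mpo, Cd3e, Cd3d, Ms4a1 and Cryaa were named outside this rule, after their values were seen. Gene positions and exon lengths are from GENCODE M21 on GRCm38 and promoters from RefSeq on GRCm38.p6, which are not the authors' build. The human samples of the study were not used here.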

Additional observations from a re-analysis of the deposited data

Results flagged for a closer look

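In 39 sets of values of 1 gene in 1 group, 4 held a mouse whose gap to the next was wide for the range of its group, where chance gives about 1 in 20. Tnf in nOIR p17 mouse S4 was 2.206 normalized reads (2 reads), beside 0 in the other 5 mice. Tnfrsf1a in OIR p17 mouse S3 was 1252 normalized reads, the highest of its group. Nfkb2 in OIR p14 mouse S1 was 62.6 normalized reads, below every nOIR p14 mouse. Bcl3 in nOIR p17 mouse S3 was 42.25 normalized reads, and the lowest OIR p17 mouse was still above it at 62.2.

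The OIR effect differed between p14 and p17 by a contrast in the limma fit for 2 of the 10 genes. It was larger at p17 by 1.10 (log2, adjusted p = 0.0081) for Tnfrsf1a and by 1.59 (adjusted p = 0.0157) for Relb. Every OIR mouse was above every nOIR mouse for Tnfrsf1a at both ages and for Relb at p17.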

How the results depend on the processing

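Of 1130 values compared with the main ones over 38 settings, 1090 kept their direction and their side of the threshold, 12 lost and 10 gained a call, and 18 changed sign. The count of higher genes at p14 (4) was 5 with edgeR and without OIR p14 replicate 1 (with Nfkb2) and 6 with DESeq2 (with Nfkb2 and Tnfrsf1b), and that at p17 (8) was 7 or 8. The DEG numbered 2 or 3 at p14 and 4 to 6 at p17. At an adjusted p under 0.01 the count of lower genes at p14 went from 1 to 0 and that of genes with a larger effect at p17 from 2 to 1. Without the 4 mice with the most Cryaa reads, chosen after seeing the data, that count was also 1. The count of genes with a smaller effect at p17 went from 0 to 1 (Tnf) with S4 included, and ranged from 0 to 1 when a mouse was left out. With DESeq2, 2 genes changed with age in nOIR mice (Relb and Tnfaip3), not 1. The fitted p17 change of Tnf went from 2.44 to 4.71 with a pseudocount of 0.1. Of 30 genes named as most like the 10, 10 stayed in the top 3 by Spearman's correlation and 4 after group means were taken off. The cause of these changes was not tested.

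Values near 0 that were never called changed sign. The p14 change of Nfkb1 (0.0196) was -0.0379 with S4, -0.00763 with quantile normalization, -0.0526 without the mice with the most Cryaa reads, and from -0.0691 to 0.106 without each mouse. The difference between the ages of Tnfaip3 (0.017) was -0.0602 without the Cryaa mice and from -0.0372 to 0.0776 without each mouse.

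The deviations of mice with the same number had low correlations (34 pairs, r from -0.108 to 0.161, median 0.0031). The highest were those of nOIR p14 mouse S1 with nOIR p17 S1 and with OIR p17 S1 (0.161 each). Pairs with different numbers were not set beside them, so the check cannot decide whether the numbers mark a pairing or a batch. With a replicate block, 4 genes were higher at p14 and 7, not 8, at p17, since Nfkbia lost its call (adjusted p = 0.0821). Under the block Nfkb1 at p14 was -0.00219, and the differences between the ages were -0.0442 for Tnfaip3 and 0.142 for Bcl3 (-0.316 without it). Depth limits Tnf, whose group totals were 0 to 206 reads.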
